A study of Mauremys reevesii with 3 samples.

Results

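The miR-200 family (miR-200, miR-141 and miR-429) and miR-205 are microRNAs (miRNAs, short RNAs that base-pair with messenger RNAs and lower their output) of epithelial cells. They were examined here in Chinese pond turtle (Mauremys reevesii) embryos. All rows of the deposited table whose name, without its species prefix, is miR-200, miR-141, miR-429 or miR-205 with any letter or arm were taken, which gave 28 of 1743 rows. These were 15 rows of miR-200, 6 of miR-429, 7 of miR-205 and 0 of miR-141. The 3 small RNA libraries came from the adrenal-kidney-gonad complex of embryos incubated at 26, 29 or 32 °C and collected at Greenbaum stage 16. One label calls the source gonad, but the tissue label names the whole complex, so kidney and adrenal cells were in each library. Cool incubation of such turtles gives mostly males and warm incubation mostly females, but the labels give the temperature and not the sex. RNA of 3 biological samples was pooled per temperature, so each temperature had 1 library, no difference has a replicate check, and the temperature cannot be told apart from the library. The design compares the temperatures to ask which miRNAs differ in abundance when the gonad starts to respond to heat.

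In mammals the miR-200 family represses the transcription factors ZEB1 and ZEB2, which silence E-cadherin, and so favours the epithelial over the mesenchymal state. miR-205 is known from basal and stratified epithelia and also targets ZEB factors. In the tissue block studied, epithelia include kidney tubules and nephric duct and the surface layer of the gonad, whereas the stroma between them is mesenchymal. Most miRNA hairpins give a 5p and a 3p strand, of which one is usually kept, and bases 2 to 8 of the kept strand (the seed) largely decide its targets.

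The sequences that carry the values are shown 5′ to 3′ as listed in the table, with the seed in capitals, and the species prefix names the reference species, not the turtle. The first 6 are 3p strands of the miR-200 family, of which all but the last carry the seed AAUACUG, shared by miR-200b, miR-200c and miR-429.
xla-miR-429: uAAUACUGucugguaaugccg
mdo-miR-429: uAAUACUGucugguaaugcc
dre-miR-429b: uAAUACUGccugguaaugccau
mmu-miR-200b-3p: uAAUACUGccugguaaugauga
bfl-miR-200b: uAAUACUGucugguaaugauguu
bfl-miR-200c: uAACACUGucugguaaugaug
Counted from 1 at the 5′ end, xla-miR-429 and dre-miR-429b differ by U9C and G21A, and xla-miR-429 and mmu-miR-200b-3p by U9C, C19A and C20U. The row mdo-miR-429 is xla-miR-429 without its last base. The row bfl-miR-200c differs from bfl-miR-200b by U4C inside the seed, which gives it AACACUG, the seed of the miR-200a and miR-141 branch in mammals.

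The miR-205 strands shown next were chosen because their ends decide which row a read belongs to.
oan-miR-205-5p: uCCUUCAUuccaccggagucu
mmu-miR-205-5p: uCCUUCAUuccaccggagucug
gga-miR-205b: cCCUUCAUuccaccggaaucug
pma-miR-205b: cCCUUCAUuccaccggagucugu
oan-miR-205-3p: gAUUUCAGuggagugaagcaca
The 5p strands share the seed CCUUCAU. The chicken row gga-miR-205b differs from oan-miR-205-5p by U1C and G18A, both outside the seed. The lamprey row pma-miR-205b carries only U1C and so lies between them.

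Counts were set over the column totals of 9348882, 9624436 and 9613861 at 26, 29 and 32 °C and are given as CPM (the count scaled to a library total of 1000000), where 1 count is 0.104 to 0.107 CPM. The 95% intervals are exact Poisson intervals for a level, exact conditional (Clopper-Pearson) intervals for a ratio of CPM between libraries, and Fisher's exact conditional intervals for a change of a within-library ratio. All cover counting error only, and they may be too narrow, because reads copied by PCR and not tagged per molecule are not independent. A row was called apart if its 2 libraries differed 2-fold or more with an interval that left out a ratio of 1. Rows entered a pair with 10 counts or more in one of its libraries. Rows of 1 family and strand that share at least 16 consecutive bases were counted once, by the most counted row, which left 10 groups for the 28 rows. Families were kept apart by name, so a miR-200 row and a miR-429 row sharing 16 bases fell in separate groups. A sequence group is the same kind of grouping over the whole table and both strands (973 groups). In tissue blocks, fewer cells of a type and less RNA per cell cannot be told apart.

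Nearly all of the family's counts belonged to 3 sequences, miR-429, miR-205-5p and miR-205b. Of the 28 rows, 6 had at least 10 counts in a library and 22 had fewer in each. The 6 were xla-miR-429 and mdo-miR-429, then oan-miR-205-5p, mmu-miR-205-5p and cgr-miR-205, and gga-miR-205b. The row cgr-miR-205, 19 bases long, had 208, 322 and 428 counts, as did mmu-miR-205-5p.

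**Figure D1:**
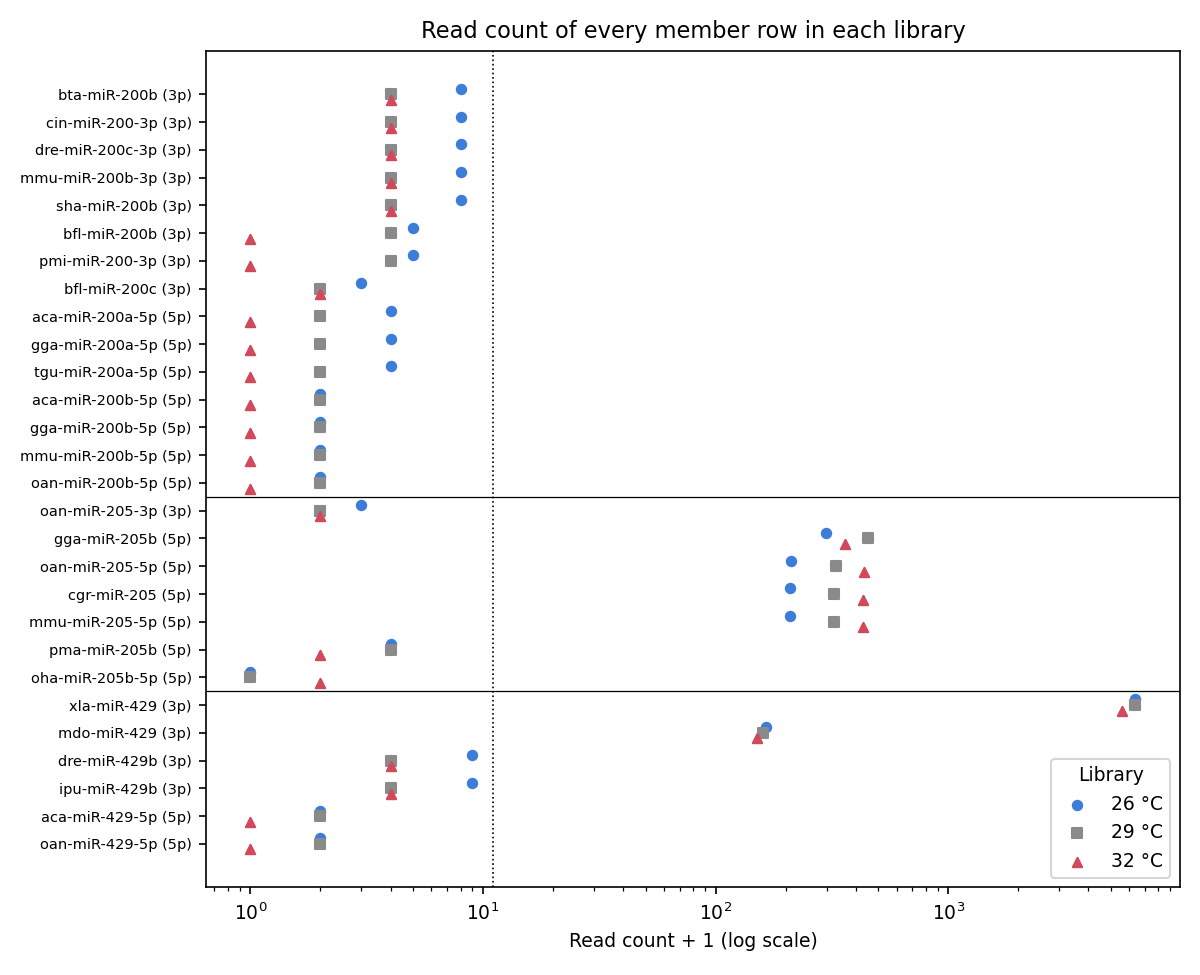
Read count plus 1 (log axis) of each of the 28 rows at 26, 29 and 32 °C, ordered by family and strand, with a dotted line at 10 counts. The miR-200 rows lie at 7 counts or fewer, the miR-205 5p rows that pass the line at 208 to 451, and xla-miR-429 at 5579 to 6380.

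Rows named miR-200 were close to the limit of detection. Of the 8 rows of 3p strands, 5 had 7, 3 and 3 counts at 26, 29 and 32 °C, although they run from 19 to 22 bases and differ at their 3′ ends. They include bta-miR-200b and mmu-miR-200b-3p. The rows bfl-miR-200b and pmi-miR-200-3p had 4, 3 and 0 counts, and bfl-miR-200c, the lone row with the seed AACACUG, had 2, 1 and 1. For bta-miR-200b the 3 counts at 32 °C against 7 at 26 °C gave a ratio of CPM of 0.417 (interval 0.0695 to 1.83), so neither a rise nor a drop was detectable at this depth.

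The 5p strands of miR-200, the strands not usually kept, had 0 to 3 counts in each library over 7 rows. miR-200a-5p had 3, 1 and 0 counts in each of its 3 rows, and miR-200b-5p had 1, 1 and 0 in each of its 4 rows. A count of 0 at 32 °C allows up to 0.312 CPM by the floor of 3 counts, and up to 0.384 CPM by the exact Poisson interval. The 3p strand of miR-200a and miR-141 were not analysed here, since no row carried those names. Of the miR-200 family, only miR-429 therefore had enough counts for its level to be compared between temperatures.

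miR-429 was the most counted of the 28 rows. The row xla-miR-429 had 6380, 6368 and 5579 counts at 26, 29 and 32 °C, or 682, 662 and 580 CPM (intervals 666 to 699, 645 to 678 and 565 to 596). The level was close at 26 and 29 °C, where the intervals overlap, and lowest at 32 °C. It took 0.0682%, 0.0662% and 0.0580% of all counts, a total that runs over every row, near-identical rows included. With each sequence group counted once, its share was 0.215%, 0.210% and 0.187%. It ranked 36th of 973 sequence groups by its count over the libraries.

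Set against the other libraries, miR-429 was slightly lower at 32 °C, by about as much as the median of the sequence groups. With 5579 counts at 32 °C against 6380 at 26 °C, the ratio of CPM was 0.850 (0.820 to 0.882), a log2 ratio of -0.23. The median log2 ratio of the 371 sequence groups with enough counts was also -0.23 for this pair, and miR-429 stood -0.0037 from it, with 184 of the other 370 groups lower. Over the 814 rows with enough counts, near-identical ones included, the median was -0.13, above the interval of miR-429. Between 29 and 26 °C the log2 ratio of miR-429 was -0.04 (-0.09 to 0.01), beside a median of -0.03. Between 32 and 29 °C it was -0.19 (-0.24 to -0.14), beside a median of -0.21. miR-429 thus lay -0.014 and 0.021 log2 units from the median of the sequence groups in these pairs.

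The size of the miR-429 ratios depends on the scaling between libraries. With trimmed-mean (TMM) factors of edgeR, which centre the bulk of rows, its log2 ratio was -0.020 (-0.072 to 0.033) for 32 over 26 °C and 0.0082 (-0.044 to 0.060) for 32 over 29 °C. With size factors of DESeq2 the values were -0.071 (-0.12 to -0.019) and -0.038 (-0.090 to 0.014). The interval for 32 over 26 °C thus includes equality with TMM factors and lies just below it with DESeq2 size factors, so no direction is drawn for miR-429.

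The row mdo-miR-429, 1 base shorter, had 164, 159 and 150 counts. That is 25.7, 25.0 and 26.9 counts per 1000 of xla-miR-429 at 26, 29 and 32 °C (intervals 21.9 to 30.02, 21.2 to 29.2 and 22.7 to 31.6). This ratio within a library does not depend on the scaling, and the 3 intervals overlap. The rows dre-miR-429b and ipu-miR-429b, with U9C, had 8, 3 and 3 counts each. Both share at least 16 bases with mmu-miR-200b-3p, which had 7, 3 and 3 counts. Whether these rows hold the same reads is not known.

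Among the listed rows, the more counted strand was the 3p strand of miR-429 and the 5p strand of miR-205 at each temperature. The minor strands were counted only in rows of reference species, so a turtle strand of another sequence could be missed. The 5p strand of miR-429 (oan-miR-429-5p) had 1, 1 and 0 counts, which was 0.0157% and 0.0157% of both strands at 26 and 29 °C (exact binomial upper limits 0.0873% and 0.0874%), and the 0 at 32 °C has an upper limit of 0.0661% (0.0538% by the floor of 3 counts). The 3p strand of miR-205 (oan-miR-205-3p) had 2, 1 and 1 counts. The 5p strand accordingly took 99.1%, 99.7% and 99.8% of the counts of oan-miR-205-5p and oan-miR-205-3p together (intervals 96.6% to 99.9%, 98.3% to 99.99% and 98.7% to 99.99%). The counts of miR-205b are not part of these shares. With 2 or fewer counts of the minor strand in each library, a difference between libraries was not detectable.

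miR-205-5p was higher in each warmer library. The row oan-miR-205-5p had 210, 327 and 435 counts at 26, 29 and 32 °C, or 22.5, 34.0 and 45.2 CPM (intervals 19.5 to 25.7, 30.4 to 37.9 and 41.1 to 49.7). The 3 intervals do not overlap. The 435 counts at 32 °C against 210 at 26 °C gave a ratio of 2.01 (1.70 to 2.39), the 327 at 29 °C against 210 at 26 °C a ratio of 1.51 (1.27 to 1.81), and the 435 at 32 °C against 327 at 29 °C a ratio of 1.33 (1.15 to 1.54). With TMM factors the log2 ratio of oan-miR-205-5p was 0.61 for 29 over 26 °C and 0.61 for 32 over 29 °C, so the order held under that scaling too.

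By the column totals, miR-205b had another order. The row gga-miR-205b had 298, 451 and 360 counts at 26, 29 and 32 °C, or 31.9, 46.9 and 37.4 CPM (intervals 28.4 to 35.7, 42.6 to 51.4 and 33.7 to 41.5). It was highest at 29 °C, and the intervals at 26 and 32 °C overlap each other. The ratio was 1.17 (1.005 to 1.37) for 32 over 26 °C, 1.47 (1.27 to 1.71) for 29 over 26 °C and 0.799 (0.694 to 0.920) for 32 over 29 °C. With TMM factors the last log2 ratio of miR-205b became -0.13 (-0.33 to 0.08), and with DESeq2 size factors -0.17 (-0.38 to 0.03). miR-205b was thus not clearly lower at 32 than at 29 °C. By the column totals it lay -0.11 log2 units from the median of the sequence groups for that pair. For 32 over 26 °C its log2 ratio was 0.45 (0.22 to 0.67) with TMM factors and 0.39 (0.17 to 0.62) with DESeq2 size factors. With the most abundant row left out of the total it was 0.22 (-0.005 to 0.45). How far miR-205b at 32 °C stood above 26 °C thus depends on the scaling.

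**Figure D2:**
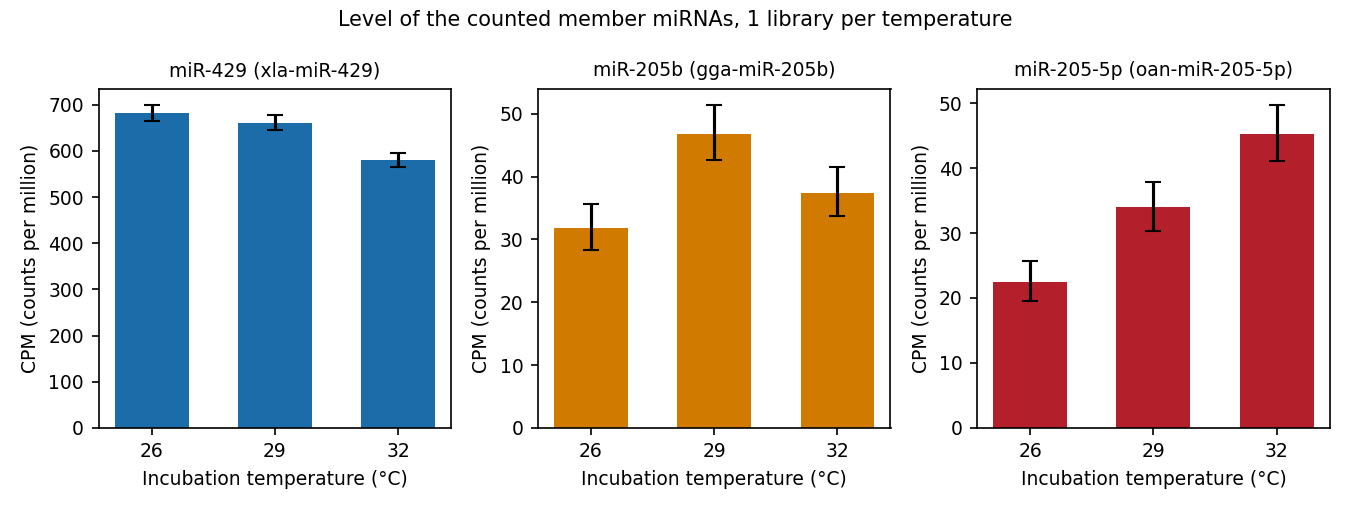
Level of miR-429, miR-205b and miR-205-5p in CPM (bars, from 0) against incubation temperature, 1 library each, with 95% exact Poisson intervals for counting error. miR-205-5p is at 22.5, 34.0 and 45.2 CPM, miR-205b is highest at 29 °C with 46.9 CPM, and miR-429 lies between 580 and 682 CPM.

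The relation between the miR-205 sequences was compared within each library, where the scaling drops out. This comparison was chosen after the values were seen and reuses the counts above, so it is not separate support for their orders. There were 0.705 counts of miR-205-5p per count of miR-205b at 26 °C (interval 0.588 to 0.844), 0.725 at 29 °C (0.627 to 0.838) and 1.21 at 32 °C (1.05 to 1.39). miR-205b was thus the more counted at 26 and 29 °C and miR-205-5p at 32 °C. The ratio at 32 °C was 1.71 times that at 26 °C (1.36 to 2.16) and 1.67 times that at 29 °C (1.36 to 2.04). Between 29 and 26 °C it changed by a factor of 1.03 (0.815 to 1.2997), which counting error does not separate from equality.

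Only U1C and G18A tell gga-miR-205b from oan-miR-205-5p over the bases they share. The row pma-miR-205b, which has U1C without G18A, had 3, 3 and 1 counts, far below both. The snake row oha-miR-205b-5p, which begins at the second base of gga-miR-205b and differs from it by C14U, had 0, 0 and 1 counts. A predicted entry, novel_79, has the same 22 bases as gga-miR-205b but was listed with 4, 4 and 4 counts. How reads were divided between rows of equal or nested sequence is not given in the sources used here.

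Because both share a seed, their sum was also formed, after the values were seen. Together oan-miR-205-5p and gga-miR-205b had 508, 778 and 795 counts at 26, 29 and 32 °C, or 54.3, 80.8 and 82.7 CPM. The log2 ratio of the sum was 0.61 (0.44 to 0.77) for 32 over 26 °C, 0.57 (0.41 to 0.74) for 29 over 26 °C and 0.03 (-0.11 to 0.18) for 32 over 29 °C. The sum was lowest at 26 °C, and with TMM factors the 32 over 29 °C value was 0.23 (0.09 to 0.37). miR-205-5p made up 41.3% of the sum at 26 °C (interval 37.0% to 45.8%), 42.0% at 29 °C (38.5% to 45.6%) and 54.7% at 32 °C (51.2% to 58.2%).

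Set against miR-429 of the same libraries, the same miR-205-5p counts gave a higher ratio in each warmer one. As the counts are those given above, this ratio is not separate support for the order. There were 32.9, 51.4 and 78.0 counts of miR-205-5p per 1000 of miR-429 at 26, 29 and 32 °C (intervals 28.6 to 37.8, 45.8 to 57.4 and 70.6 to 86.0). The ratio at 32 °C was 2.37 times that at 26 °C (1.996 to 2.82) and 1.52 times that at 29 °C (1.31 to 1.77). For miR-205b the counts per 1000 of miR-429 were 46.7, 70.8 and 64.5 (41.4 to 52.5, 64.2 to 77.9 and 57.8 to 71.8), and those at 29 and 32 °C overlap.

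**Figure D3:**
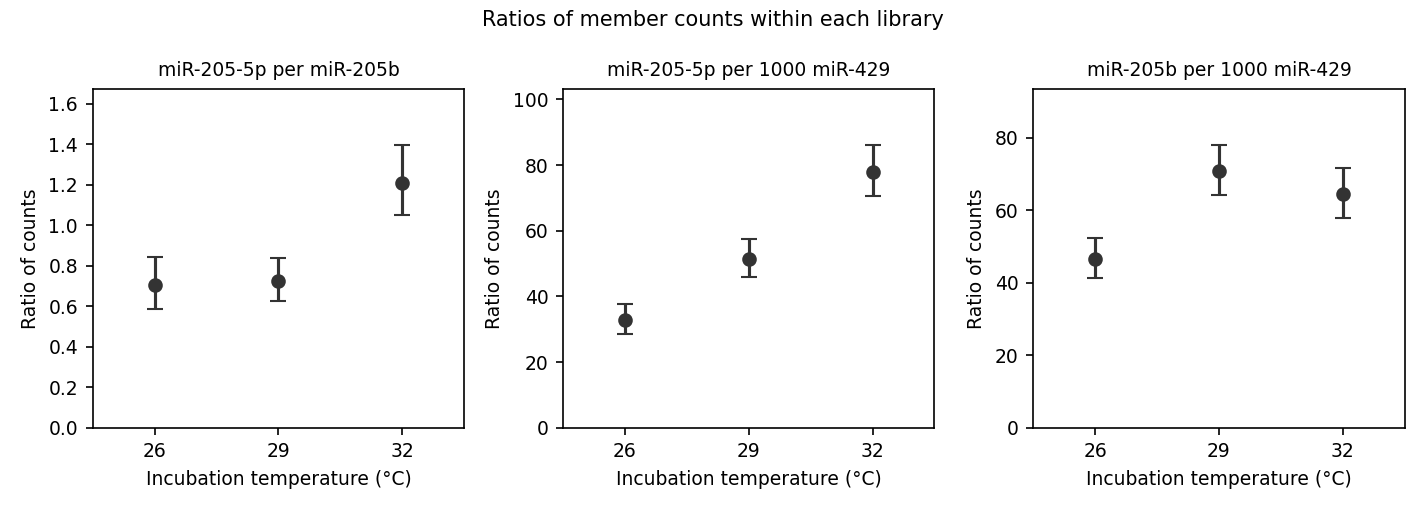
Counts of miR-205-5p per count of miR-205b, of miR-205-5p per 1000 of miR-429, and of miR-205b per 1000 of miR-429, against incubation temperature, with 95% exact intervals for counting error. The first ratio is 0.705, 0.725 and 1.21, the second 32.9, 51.4 and 78.0, and the third 46.7, 70.8 and 64.5.

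By the 2-fold rule, 3 of the 6 rows with enough counts were higher at 32 than at 26 °C, against a background of 4.42% of all 814 rows tested. The 3 rows are oan-miR-205-5p, mmu-miR-205-5p and cgr-miR-205. They list 1 sequence at different lengths with equal or nearly equal counts, so the share is not comparable with the background. Counted once per near-identical group, 0 of 2 groups were apart, against 25.3% of 371 sequence groups, because 16 shared bases join miR-205-5p to the more counted miR-205b. With those kept apart by the letter in the name, a choice made after seeing the data, 1 of 3 was higher, beside 6.47% of the sequence groups. For 29 over 26 °C 0 of 6 rows were apart (background 10.8% of 812 rows), and for 32 over 29 °C 0 of 6 (background 12.4% of 807 rows).

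The call of miR-205-5p rests on the edge of the threshold. Its log2 ratio for 32 over 26 °C was 1.01 (0.77 to 1.25) in oan-miR-205-5p and 1.001 (0.76 to 1.25) in mmu-miR-205-5p, and with the most abundant row left out of the total it was 0.998, just short of 2-fold. With TMM factors it was 1.22 (0.98 to 1.47). Of 371 sequence groups, 333 had a lower ratio than miR-205-5p and 38 a higher one. The 371 include gga-miR-205b, which stands for the group that holds oan-miR-205-5p. All of the 38 had a mean CPM over the pair below the level of miR-205-5p at 26 °C. Most of them were predicted entries. For 29 over 26 °C, 308 of 371 groups were lower than miR-205-5p, and 302 of 370 were lower than miR-205b.

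**Figure D4:**
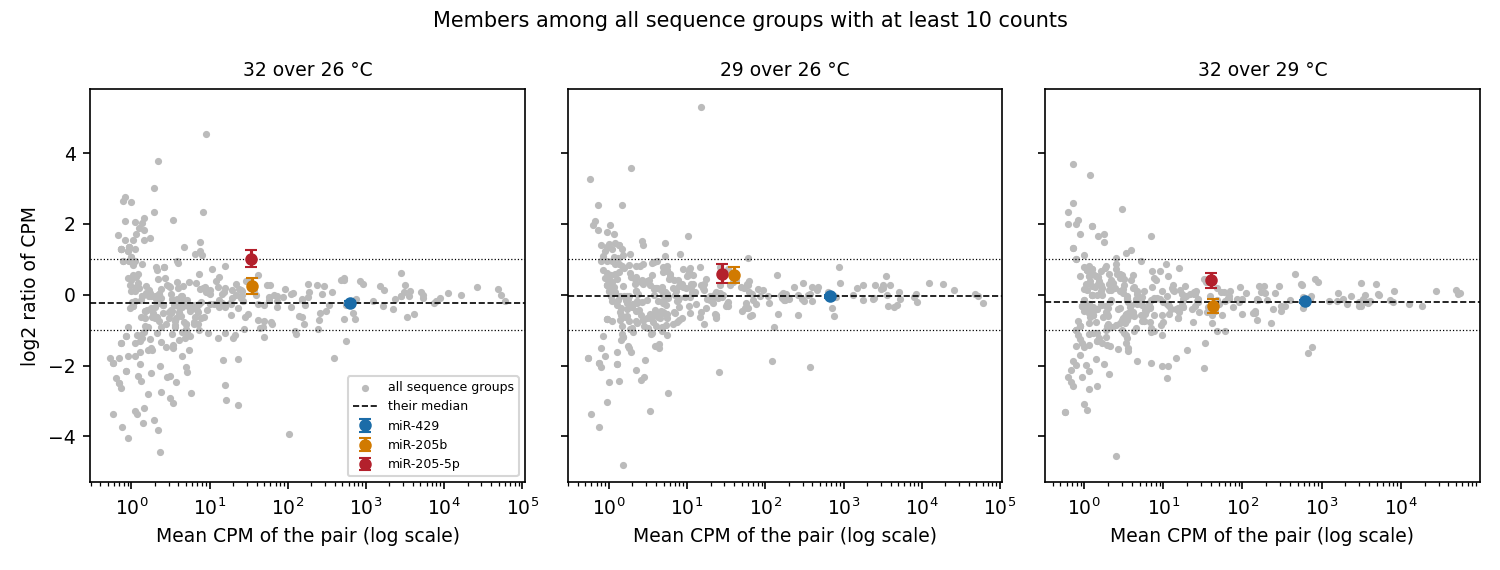
log2 ratio of CPM for each pair of libraries against the mean CPM of the pair (log axis), for all 371 sequence groups (grey), with their median (dashed), 2-fold (dotted) and 95% exact intervals for miR-429, miR-205b and miR-205-5p. miR-429 lies on the median in each pair, and miR-205-5p at 1.01 for 32 over 26 °C touches the 2-fold line.

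Among other epithelial miRNAs, miR-182 had the order opposite to that of miR-205-5p, and the rest had few counts. The list held miR-203 and miR-31 of skin and other stratified epithelia, miR-375 of endocrine epithelia, and miR-182, miR-183 and miR-96 of sensory epithelia. miR-203 (mmu-miR-203-3p) had 7, 15 and 10 counts at 26, 29 and 32 °C, and miR-31 (gga-miR-31-5p) had 2, 2 and 5. miR-182, both strands together, had 117, 71 and 32 counts, and miR-183 (cgr-miR-183) had 5, 4 and 3. No row of miR-375 or miR-96 was analysed here. Of the 3 sequence groups of the list with enough counts, 2 were called lower at 32 than at 26 °C, both strands of miR-182, against 18.9% of all groups. The median of the 3 was -1.48 beside -0.23 for all groups. It is the value of 1 strand of miR-182, so it describes that miRNA rather than the list. miR-203 stood at 0.47 (-1.07 to 2.10). Summed, the list had 131, 92 and 50 counts, most of them miR-182. The skin miRNAs miR-203 and miR-31 stayed at or under 15 counts, and their part in the miR-205 values was not tested.

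The kidney miRNAs of the list, miR-192, miR-194, miR-215, miR-30, miR-204 and miR-211, came to 20 sequence groups, of which 12 had enough counts. Of these, 1 was called lower at 32 than at 26 °C, hsa-miR-30a-3p with 28 against 56 counts, beside 18.9% of all groups. The median was -0.51 beside -0.23, but it weighs each group alike, whatever its count. The summed list stood at -0.25 (-0.27 to -0.24), with hsa-miR-30c-5p at -0.004 and ola-miR-192-5p at -0.64. For 29 over 26 °C 0 of 12 were apart, beside 15.1% of all groups, with a median of -0.26 beside -0.03. For 32 over 29 °C 1 of 12 was lower, beside 13.5% of all groups, xtr-miR-215 with 11 against 25 counts, with a median of -0.23 beside -0.21 for all groups. The summed list had 103914, 87300 and 89595 counts at 26, 29 and 32 °C, which is lowest at 29 °C. That was the order of miR-30, with 58410, 48428 and 57433 counts. miR-192, with 38237, 31766 and 25229, and miR-194, with 7250, 7081 and 6921, were lowest at 32 °C.

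Mesenchymal miRNAs, the other side of the epithelial to mesenchymal axis, were far more counted than the miR-200 family. The miR-143, miR-145, miR-199 and miR-214 list had 271224, 333059 and 279526 counts over 13 sequence groups. None of the 13 was apart for 32 over 26, 29 over 26 or 32 over 29 °C, where 25.3%, 15.1% and 18.3% of all groups were. Those shares are not matched for count, and the list holds some of the most counted groups. The widest ratio was that of hsa-miR-145-3p, -0.83 (-0.94 to -0.73) for 32 over 26 °C. The list medians were -0.02 for 32 over 26 °C, 0.27 for 29 over 26 °C and -0.31 for 32 over 29 °C. Those of all groups were -0.23, -0.03 and -0.21. Per 1000 counts of miR-143 (ola-miR-143), a miRNA of smooth muscle and stroma, there were 40.9, 32.3 and 35.3 counts of miR-429 at 26, 29 and 32 °C (intervals 39.9 to 41.9, 31.5 to 33.1 and 34.4 to 36.2). There were 1.35, 1.66 and 2.75 counts of miR-205-5p per 1000 of miR-143 (1.17 to 1.54, 1.48 to 1.85 and 2.499 to 3.02). miR-429 was therefore highest at 26 °C relative to miR-143, and miR-205-5p at 32 °C. Both ratios reuse the member counts given above and are not separate support for their orders. Per 1000 counts of the kidney miRNA miR-192 (ola-miR-192-5p) there were 167, 200.5 and 221 counts of miR-429, lowest at 26 °C, while miR-192 itself had 38237, 31766 and 25229 counts.

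**Figure D5:**
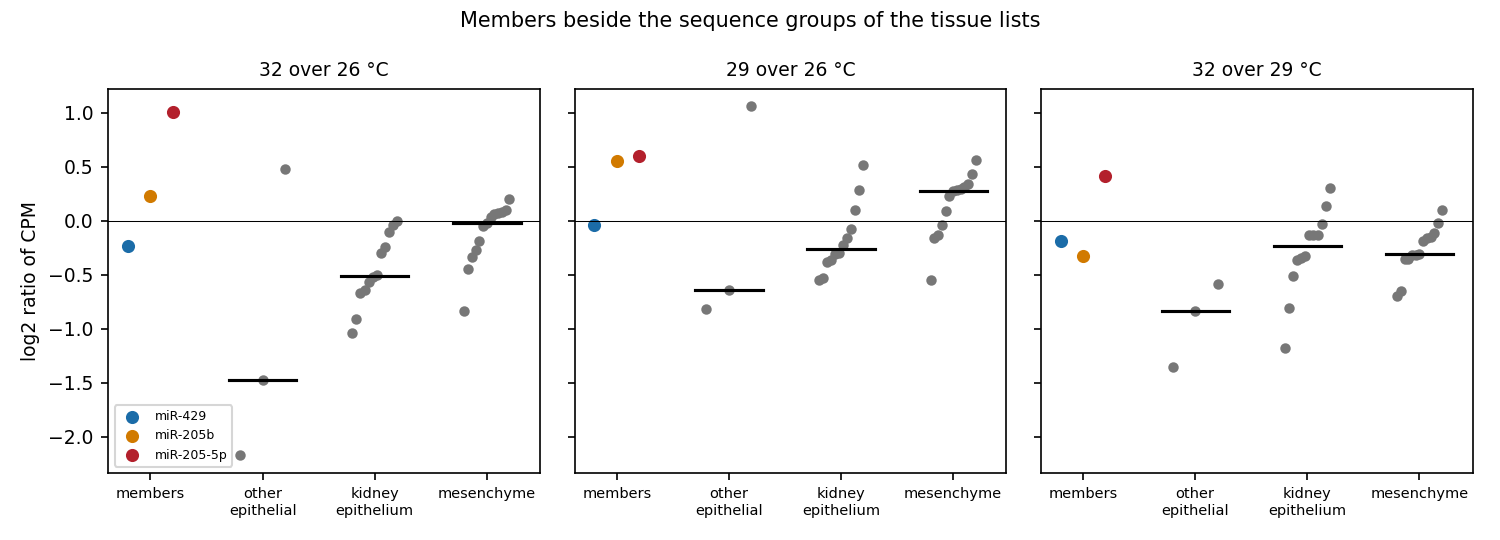
log2 ratio of CPM for each pair of libraries, for miR-429, miR-205b and miR-205-5p (coloured, left) and for the sequence groups with enough counts of the other epithelial, kidney epithelium and mesenchyme lists (grey, with the median as a line). For 32 over 26 °C the list medians are -1.48, -0.51 and -0.02, and miR-205-5p stands at 1.01. The first median is over 3 groups, of which 2 are the strands of miR-182. The second weighs 12 groups alike, and the summed kidney list is at -0.25.

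Markers of other cell types are given as summed counts beside these values. The gonad miRNA miR-202 had 7598, 9930 and 3177 counts at 26, 29 and 32 °C over 3 sequence groups. The liver miRNA miR-122 had 5686, 1416 and 1687, and the blood list (miR-223, miR-142 and miR-451) had 582, 1127 and 540. The blood miRNAs differed in order. miR-223 had 415, 924 and 417 counts and miR-142 had 123, 194 and 98, but miR-451 had 44, 9 and 25, lowest at 29 °C. Striated muscle miRNAs had 1433, 1131 and 1055 counts, and the nervous system list (miR-124, miR-9 and miR-137) had 60, 130 and 147. Nearly all of these were miR-137, while miR-9 had 1, 0 and 2 counts and miR-124 had no row. The last list was lowest at 26 °C, while its log2 ratio for 32 over 29 °C was 0.18 (-0.17 to 0.53) and its most counted row, dre-miR-137-3p, had 47, 107 and 105 counts. Whether the cells behind these lists have a part in the miR-205 values was not tested.

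The miRNAs whose 3 levels ran closest to those of the counted members were found by the distance between log2 CPM values centred over the 3 libraries, among 136 named sequence groups with at least 100 counts. For miR-429 they were hsa-miR-92a-3p at 0.0186 log2 units, gga-miR-181b-5p at 0.0411, bta-miR-99a-5p at 0.0524, oha-miR-126-5p at 0.0529 and dre-miR-454b at 0.0684. For miR-205b they were pma-miR-199b-5p at 0.0247, gga-let-7i at 0.0579, gga-miR-302d at 0.0706, hsa-miR-214-5p at 0.115 and ssa-miR-23b-3p at 0.146. For miR-205-5p the nearest stood farther off, with gga-miR-7 at 0.298, gga-miR-196-5p at 0.387, dre-miR-137-3p at 0.410, bta-miR-2889 at 0.434 and dre-miR-125a at 0.438. Counts also rose in each warmer library for gga-miR-7 (21124, 26560 and 33098) and gga-miR-196-5p (4115, 4885 and 5914). The same held for bta-miR-2889 (99, 125 and 134) and dre-miR-125a (4154, 4662 and 5740), but not for dre-miR-137-3p (47, 107 and 105). Likeness over 3 libraries is a description only.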

How the data were processed

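Small RNA libraries from pooled RNA of 3 biological samples per temperature were sequenced, per the labels' protocols. FastQC and Bowtie are named in the submitters' processing notes. Versions, build, the miRNA reference and how reads matching more than 1 row were handled are not given in the sources used here. The authors deposited raw read counts per row and TPM, per the file headers. Those TPM values were the counts over the column total times 1000000, with no length term. All value columns were matched to temperatures by name.

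CPM, ratios and intervals were computed from the counts in Python 3.11.15 with numpy 2.4.6, pandas 2.3.3, scipy 1.17.1 and matplotlib 3.10.9. With 1 library a temperature, libraries could not be tested against each other. Where both counts were at or under 3 no ratio was formed, and a count of 0 was set to 3. Strands missing from a row's name were taken from rows with the same seed (10 rows) or sharing 16 bases (1 row). Alternative scalings were TMM factors of edgeR 4.0.16 and size factors of DESeq2 1.42.0 (R 4.3.3), a total without the most abundant row and a total over sequence groups. The ratios and calls were checked on simulated counts with known changes. Those counts were drawn independently with Poisson error, so the check does not cover PCR copies, near-identical rows or the spread between samples. Named were all member rows, predicted rows sharing 16 bases with them, rows sharing a seed, the 5 nearest patterns and the list rows. The members and lists were chosen with earlier results of these data known. Within-library ratios, the sum of miR-205 and miR-205b and their separation by letter were chosen after seeing the values.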

Additional observations from a re-analysis of the deposited data

How the results depend on the processing

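No paired analysis was possible because there was only 1 library for each temperature. The deposited TPM returns the same ratios by construction and is left out of the next counts. There were 66 other alternative log2 values for miR-429, miR-205b and miR-205-5p and their within-library ratios. Of these, 52 stayed inside the interval of the value reported and 14 moved outside it. Those inside include all values with mmu-miR-205-5p or cgr-miR-205 in place of oan-miR-205-5p. These rows have nearly equal counts (208, 322 and 428 against 210, 327 and 435), so such values could hardly move. The number inside thus overstates the stability. For miR-429 at 32 over 26 °C, reported as -0.23, the values outside were -0.020 with TMM factors, -0.071 with DESeq2 size factors and -0.17 with mdo-miR-429 in its place. At 32 over 29 °C, reported as -0.19, they were 0.0082, -0.038 and -0.082. The factors moved the median of all 814 rows for 32 over 26 °C from -0.13 to 0.09 (TMM) and 0.03 (DESeq2). For miR-205b at 32 over 26 °C, reported as 0.23, the mean over near-identical rows gave 0.79, oan-miR-205-5p 1.01 and mmu-miR-205-5p and cgr-miR-205 1.001. At 32 over 29 °C, reported as -0.32, they gave values of opposite sign, 0.21, 0.41 and 0.41. The last 2 come from rows of miR-205-5p, and the mean combines these with miR-205b.

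Counts of all rows called apart moved more. For 32 over 26 °C, 36 higher rows became 17 under a minimum of 50 counts and 7 where the entire interval had to pass 2-fold, and 108 lower rows became 53 and 47, or 70 per sequence group. For 29 over 26 °C, 37 higher became 12 and 7, or 22 per sequence group, and 51 lower became 23 and 23. For 32 over 29 °C, 22 higher became 5 and 4, and 78 lower became 28 and 19, 46 with TMM factors, 48 with DESeq2 size factors and 50 per sequence group. Higher rows were 22.0% of those called for that pair, but 35.2% under TMM and 34.2% under DESeq2 scaling. The counts per sequence group are out of 371 groups, so they are fewer although the shares are larger. For 32 over 26 °C, 4.42% of 814 rows and 6.47% of 371 groups were higher. In either direction, 10.8% of 812 rows and 15.1% of 371 groups were apart for 29 over 26 °C. For 32 over 29 °C these were 12.4% of 807 rows and 18.3% of 371 groups. A minimum of 50 counts also leaves fewer rows tested. At these depths rows of miR-200 with 7 counts or fewer allow no comparison.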

Other observations

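A row named after another miRNA had the same few counts as a miR-200 row. Whether both rows hold the same reads is not given in the sources used here. The sea squirt row cin-miR-3575-5p had 7, 3 and 3 counts at 26, 29 and 32 °C, the same as cin-miR-200-3p, and 19 of its bases are the opposite strand of that row. It and novel_79 were the 2 rows outside the family that shared at least 16 bases with a member, and novel_79 was the 1 such row with the seed CCUUCAU.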
